A study of Mus musculus with 6 samples.

Results

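The genes Dlg2, Dlg4, Dlgap1, Shank1, Shank2, Shank3, Homer1, Magi2 and Anks1b encode scaffold proteins of the postsynaptic density. They were chosen by name, with earlier results of these data known, and every transcript listed under one of these names was taken. This gave 119 of 115220 transcripts and 9 of 47729 genes.

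In the medial prefrontal cortex (mPFC), ribosome-associated RNA of D2 neurons was compared between 3 Ctrl libraries and 3 libraries of the Gsk3sKO in mPFC D2 group (Gsk3sKO below). RiboTag immunoprecipitation pulls down ribosomes through a hemagglutinin tag on the ribosomal protein Rpl22, so the RNA read is the RNA that was bound to tagged ribosomes. Both groups were adult male mice of the C57BL/6 strain, 2.5 to 3 months old at injection, that carried D2Cre, LSL-Flag-Cas9 and RiboTag. Ctrl mice received AAV GFP and Gsk3sKO mice AAV Gsk3sgRNA/GFP into the mPFC, which was dissected 3 weeks later. Cre came from a bacterial artificial chromosome transgene, and Cas9 and the tagged ribosomal subunit were switched on wherever Cre was active, whether or not the cell was infected. The sources used here do not state how many mice went into a library, and a p-value here covers no more than the spread from library to library, which may be technical.

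At an excitatory synapse, the postsynaptic density is a protein layer under the membrane that holds glutamate receptors and their signaling enzymes in place. Scaffolds of the Dlg family bind receptors directly, Dlgap proteins bridge them to Shank proteins, and Homer links Shank to metabotropic glutamate receptors and calcium stores. Magi2 and Anks1b are further multidomain scaffolds of this layer. Many of these genes have several start sites and small alternative exons, so that the same gene can give proteins with different binding partners.

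The values are FPKM, fragment numbers corrected for transcript length and for how many fragments of the library were mapped. The spacing of low values put the reads behind them at about 23.5 to 45.2 M per library. D2 receptor RNA (Drd2) was at 1.58 to 14.1 FPKM in the 6 libraries. The excitatory marker Slc17a7 was at 192 to 273 FPKM and the interneuron marker Sst at 652 to 942 FPKM. Summed marker levels were 49.8 to 70.9 FPKM for 5 astrocyte genes, 109 to 167 for 5 oligodendrocyte genes, 10.4 to 17.6 for 5 microglial genes and 12 to 43.3 for 5 endothelial genes, and in each list the groups overlapped. Of 32 marker genes of all lists tested, 4 were called lower and 0 higher, where 5.2% of all gene totals were called lower and 1.36% higher. Lower were the excitatory marker Tbr1 at 26.1 to 28.2 FPKM in Ctrl and 17.6 to 22.7 FPKM in Gsk3sKO, the microglial C1qa at 4.3 to 5.73 and 1.51 to 3.56 FPKM, and the oligodendrocyte genes Cldn11 at 4.99 to 5.48 and 2.16 to 3.62 FPKM and Mog at 2.67 to 4.0 and 0 to 1.81 FPKM. In these 4 and in Slc17a7 every Ctrl library was above every Gsk3sKO library. How often the groups did not overlap among all gene totals was not counted. The part of other cell types in the results below was not tested. In immunoprecipitates of bulk tissue, fewer cells of a type and less RNA per cell cannot be told apart.

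Gsk3b, the targeted gene, was checked first. Its main transcript ENSMUST00000023507 had 33.5, 34.7 and 36.2 FPKM in Ctrl and 24.8, 21.6 and 21.2 FPKM in Gsk3sKO. The groups did not overlap (log2 fold change -0.61 ± 0.14 SE, limma with Benjamini-Hochberg adjusted p = 0.619), a call at an unadjusted p under 0.05. The other coding transcript tested, ENSMUST00000114750, had 1.85, 18.7 and 20.0 FPKM in Ctrl and 11.9, 15.4 and 12.5 FPKM in Gsk3sKO. Its groups overlapped (log2 fold change 0.42, limma adjusted p = 0.949). The Gsk3b gene total changed by -0.40 ± 0.19 on the log2 scale (limma adjusted p = 0.773), with overlap between groups. It was not called, but was called at -0.61 without Ctrl replicate 1. Cas9 leaves small insertions or deletions, which need not lower the RNA.

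Gsk3sKO replicate 3 stood apart from the other libraries in several scaffold genes. In 3258 genes with several transcripts, the leading transcript of a library was compared with that of the mean of the other libraries. It differed in 21.9% to 27.3% of genes, with the highest share in Gsk3sKO replicate 3. Of the 9 scaffold genes, 4 led with another transcript in Gsk3sKO replicate 3 and 4 in Ctrl replicate 1, against 1 or 2 in the others.

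The amount of scaffold RNA on tagged ribosomes did not pass the test in any of the 9 genes. A gene total is the sum of the FPKM of its transcripts, and a call is an unadjusted p under 0.05 in limma on log2(FPKM + 1), fitted over all gene totals. Of 12874 gene totals tested, 6.56% were called, and 0 of the 9 scaffold genes were. The number at an unadjusted p under 0.05 was also 0 with an ordinary linear model. Adjusted p-values (limma, Benjamini-Hochberg) of the 9 ran from 0.792 to 0.956. The groups overlapped in all 9, and the share over all gene totals was not counted. The median log2 fold change of the 9 was -0.09 and that of all gene totals tested was -0.06. The 669 lower and 175 higher calls among all gene totals became 511 and 297 when the libraries were scaled to a common median ratio.

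The sum of the 9 gene totals was 559, 649 and 656 FPKM in Ctrl and 628, 605 and 504 FPKM in Gsk3sKO. Only Gsk3sKO replicate 3 lay below the Ctrl range (exact permutation p = 0.5, 2-sided, n = 3 and 3, where 0.1 is the smallest possible). The order of the levels per length, by the mean of the 6 libraries, was Dlg4 (142 FPKM), Dlgap1 (112), Dlg2 (111), Homer1 (76.8), Anks1b (56.6), Shank1 (33.9), Magi2 (32.2), Shank2 (20.4) and Shank3 (15.2). Among neighbours in this order, the ranges over the 6 libraries were separate only between Dlg2 and Homer1 and between Anks1b and Shank1. Dlg4 was above Dlgap1, Homer1 above Anks1b and Magi2 above Shank2 in 6 of 6 libraries, while Dlgap1 and Dlg2, and Shank1 and Magi2, each changed places in 3 of 6.

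**Figure D1:**
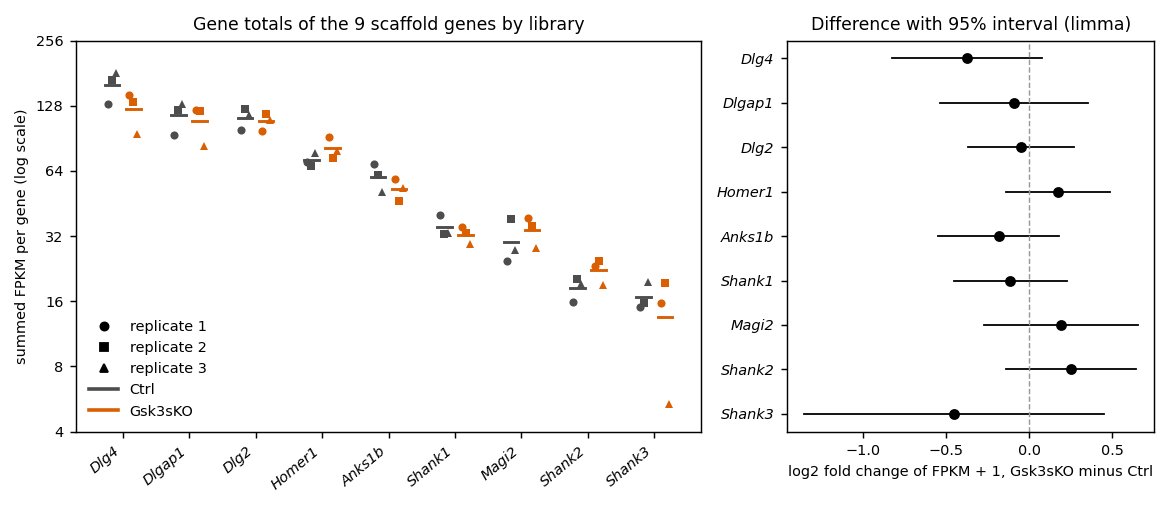
Left, gene totals (summed FPKM, log scale) of the 9 scaffold genes in each library, with symbols for the replicates and a bar at the group mean. Right, the log2 fold change of Gsk3sKO against Ctrl with its 95% interval from limma. Every interval crosses 0, and the lowest point of Dlg4, Dlgap1 and Shank3 is Gsk3sKO replicate 3.

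Dlg4 encodes PSD-95, the main membrane-associated scaffold for NMDA receptors and for the partners of AMPA receptors (chr11:70016942-70047522, plus strand, GRCm38). Its gene total was 130, 168 and 181 FPKM in Ctrl and 144, 133 and 94.5 FPKM in Gsk3sKO. Gsk3sKO replicates 1 and 2 lay inside the Ctrl range and replicate 3 below it. The log2 fold change was -0.37 ± 0.20 (95% interval -0.82 to 0.08, limma adjusted p = 0.792). It was -0.51 without Ctrl replicate 1, the one left-out library that gave a call, and -0.19 without Gsk3sKO replicate 3.

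ENSMUST00000018700, which codes for 664 residues, held 77.7%, 71.6% and 93.4% of Dlg4 in Ctrl and 90.5%, 92.1% and 64.1% in Gsk3sKO. It led in 6 of 6 libraries, and its log2 fold change was -0.36, and -0.0088 without Gsk3sKO replicate 3. ENSMUST00000108588, from an upstream start and with 724 residues, varied more, at 12.6, 34.6 and 3.35 FPKM in Ctrl and 6.00, 6.26 and 28.9 FPKM in Gsk3sKO. The groups overlapped in both. The called Dlg4 transcript was ENSMUST00000135916, a fragment of 404 bases annotated with 51 codons and an incomplete coding end. It had 4.92, 2.84 and 1.42 FPKM in Ctrl and 0.0109, 0.275 and 0.00746 FPKM in Gsk3sKO (log2 fold change -1.80 ± 0.48, limma adjusted p = 0.752). The groups did not overlap, and these values rested on about 90, 37 and 13 reads in Ctrl.

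Dlg2 encodes PSD-93, a close relative of PSD-95 (chr7:90476672-92449247, plus strand). Its gene total was 99.5, 123 and 116 FPKM in Ctrl and 98.3, 118 and 110 FPKM in Gsk3sKO. The groups covered almost the same range (log2 fold change -0.05 ± 0.14, 95% interval -0.37 to 0.27, limma adjusted p = 0.956). Most of its FPKM was not annotated as coding, since processed transcripts held 59.7% of the Dlg2 FPKM and protein-coding ones 36.8%. FPKM divides by length, and reads are divided between overlapping transcripts by estimate. In estimated reads, the coding ENSMUST00000107196 (7490 bases) was above the processed ENSMUST00000138389 (3218 bases) in every library. These were about 6091 to 12926 and 2088 to 8633 reads. The leading processed transcript, ENSMUST00000138389, held 59.6%, 55.1% and 59.9% in Ctrl and 55.1%, 62.3% and 19.5% in Gsk3sKO. Its log2 fold change was -0.55, and -0.05 without Gsk3sKO replicate 3. That library alone was far lower, and there the coding transcript ENSMUST00000107196 (852 residues) led instead. That coding transcript was at 32.5, 35.0 and 34.6 FPKM in Ctrl and 39.7, 32.9 and 57.3 FPKM in Gsk3sKO, with overlap. One start, at 91711420, gave 0.651, 1.32 and 1.54 FPKM in Ctrl and 1.80, 5.98 and 3.87 FPKM in Gsk3sKO, without overlap (exact permutation p = 0.1, the smallest possible). It held at most 5.08% of Dlg2. The start at 92180684, with no coding transcript, was separate in the other direction, at 1.62, 1.01 and 2.05 FPKM in Ctrl and 0, 0.659 and 0 FPKM in Gsk3sKO. Of 40 groups of starts above 0 in the 8 scaffold genes with several, 4 did not overlap, against 8.16% over all genes. Of the 25 with a mean of at least 1 FPKM it was 2, against 10.3%.

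Dlgap1 encodes GKAP, which joins PSD-95 to Shank (chr17:69969073-70821413, plus strand). Its gene total was 94.3, 122 and 131 FPKM in Ctrl and 122, 121 and 83.9 FPKM in Gsk3sKO. Gsk3sKO replicate 3 was the lowest and Ctrl replicate 1 the next (log2 fold change -0.09 ± 0.19, 95% interval -0.54 to 0.35, limma adjusted p = 0.944). The leading transcript ENSMUST00000135938 (964 residues) had 43.3, 68.4 and 74.1 FPKM in Ctrl and 72.1, 74.8 and 0.388 FPKM in Gsk3sKO. In Gsk3sKO replicate 3 it was nearly absent, and ENSMUST00000148486 (682 residues, from a start about 6 kb further on) was at 48.6 FPKM there against 8.22 to 24 FPKM in the other 5 libraries. The log2 fold change of ENSMUST00000135938 was -1.64 with all libraries (limma adjusted p = 0.893) and 0.28 without Gsk3sKO replicate 3, with no call in either.

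The Shank proteins form the deep layer of the density and tie it to the actin skeleton. Shank1 (chr7:44310253-44360572, plus strand) had a gene total of 40.2, 32.7 and 33.0 FPKM in Ctrl and 35.3, 33.0 and 29.3 FPKM in Gsk3sKO. The groups overlapped (log2 fold change -0.11 ± 0.15, 95% interval -0.45 to 0.23, limma adjusted p = 0.914). ENSMUST00000107934 (2158 residues) held 70.0%, 70.9% and 74.2% of it in Ctrl and 79.1%, 78.5% and 7.06% in Gsk3sKO. In Gsk3sKO replicate 3, ENSMUST00000107935 (2159 residues) took its place at 20.1 FPKM, against 1.17 to 2.96 FPKM elsewhere. Without that library, the share of ENSMUST00000107934 was higher in Gsk3sKO by 7.06 percentage points and the groups did not overlap (exact permutation p = 0.1, the smallest 3 against 2 libraries allow). Their coding sequences differ by only a pair of small exons, which are described further on. A start at 44336016, with 1 noncoding transcript, had 2.34, 1.22 and 2.03 FPKM in Ctrl and 0.0791, 0 and 0.172 FPKM in Gsk3sKO, without overlap.

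Shank2 (chr7:144001928-144424494, plus strand) had 15.9, 20.3 and 19.3 FPKM in Ctrl and 23.2, 24.7 and 19.0 FPKM in Gsk3sKO. Gsk3sKO replicates 1 and 2 were above the Ctrl range and replicate 3 inside it (log2 fold change 0.25 ± 0.17, 95% interval -0.14 to 0.65, limma adjusted p = 0.824). Its 4 coding transcripts traded places from library to library within both groups. ENSMUST00000105900 (1472 residues) held 1.38%, 86.7% and 17.2% in Ctrl and 24.2%, 94.5% and 79.1% in Gsk3sKO. The spread within Ctrl covered nearly the whole scale, and the groups overlapped (exact permutation p = 0.4 for this share). In FPKM its log2 fold change was 1.57 (limma adjusted p = 0.881), not called, and it was called at 2.58 without Ctrl replicate 2 (limma adjusted p = 0.949).

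Shank3 (chr15:89499623-89560261, plus strand) was the lowest of the 9, at 15.1, 15.7 and 19.7 FPKM in Ctrl and 15.7, 19.3 and 5.38 FPKM in Gsk3sKO. All but Gsk3sKO replicate 3 lay within a narrow range (log2 fold change -0.45 ± 0.40, 95% interval -1.36 to 0.45, limma adjusted p = 0.867). Without that library the log2 fold change was 0.06. The full-length transcript ENSMUST00000109309 (1805 residues) was at 6.25, 7.36 and 7.40 FPKM in Ctrl and 9.57, 8.54 and 4.42 FPKM in Gsk3sKO. Gsk3sKO replicates 1 and 2 were above Ctrl and replicate 3 below it.

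Homer1 (chr13:93299635-93405129, plus strand) makes long proteins that join into cross-links and short ones, led by the activity-induced Homer1a, that lack the coiled coil and undo those links. The gene total was 70.5, 67.8 and 77.7 FPKM in Ctrl and 91.7, 73.5 and 79.5 FPKM in Gsk3sKO. The lowest Gsk3sKO library lay inside the Ctrl range (log2 fold change 0.17 ± 0.14, 95% interval -0.14 to 0.49, limma adjusted p = 0.857). Its 11 transcripts all begin near the same start and are all annotated as coding, and the classes were told apart by annotated protein length.

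The 3 long-form transcripts, of 354 to 370 residues, summed to 53.9, 53.1 and 62.2 FPKM in Ctrl and 76.6, 63.7 and 60.6 FPKM in Gsk3sKO. Gsk3sKO replicate 3 lay within the Ctrl range and the other pair above it (exact permutation p = 0.2). Homer1a, ENSMUST00000102752 with 186 residues, had 10.3, 9.18 and 12 FPKM in Ctrl and 11.9, 7.01 and 12.8 FPKM in Gsk3sKO. It did not separate the groups in either direction (exact permutation p = 1.0), and it made up 13.5% to 15.4% of Homer1 in Ctrl and 9.54% to 16.1% in Gsk3sKO. The short class as a whole, 8 transcripts of 180 to 233 residues, summed to 14.7 to 16.6 FPKM in Ctrl and 9.79 to 18.9 FPKM in Gsk3sKO, with overlap. This class was set by length alone. Some of its transcripts, such as ENSMUST00000109495, which ends at 93402306, run well past the end of Homer1a at 93360462. Whether these lack the coiled coil was not tested.

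The end of the Homer1a coding sequence is shown because it separates the short form from the long ones. It lies at chr13:93356065-93356113 on the plus strand of GRCm38. Small letters are shared with the leading long form, and capitals are the bases that this form lacks, which end in the stop codon.
Homer1a coding end: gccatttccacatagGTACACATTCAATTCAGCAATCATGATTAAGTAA

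Magi2 (chr5:19227036-20704792, plus strand) encodes S-SCAM, a scaffold with several PDZ domains that also binds neuroligins. The gene total was 24.5, 38.2 and 27.6 FPKM in Ctrl and 38.7, 35.8 and 28.2 FPKM in Gsk3sKO. The groups overlapped (log2 fold change 0.19 ± 0.20, 95% interval -0.27 to 0.65, limma adjusted p = 0.896). The transcripts below that total were divided differently. ENSMUST00000197443 (1400 residues) was listed at 2.60, 14.1 and 11.2 FPKM in Ctrl, on about 772, 2969 and 1738 reads, and at 0 in 3 of 3 Gsk3sKO libraries (called, limma with Benjamini-Hochberg adjusted p = 0.444). This transcript and Anks1b ENSMUST00000182966 had been picked out in earlier work on these libraries, so their values here are no independent support.

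The other Magi2 transcripts varied in both groups. ENSMUST00000101558 (1098 residues), the most abundant by the mean, had 11.3, 6.29 and 7.88 FPKM in Ctrl and 8.79, 5.0 and 4.73 FPKM in Gsk3sKO. ENSMUST00000115267 (1112 residues) had 1.52, 5.87 and 3.66 FPKM in Ctrl and 6.95, 13.8 and 2.83 FPKM in Gsk3sKO. ENSMUST00000088516 (1275 residues), which starts in the same place as ENSMUST00000197443, was at 15.2 FPKM in Gsk3sKO replicate 3 and listed at 0 in the other Gsk3sKO libraries. All transcripts from this far upstream start together had 8.29, 14.7 and 12.1 FPKM in Ctrl and 3.41, 0.169 and 15.8 FPKM in Gsk3sKO. The groups therefore overlapped for the start although they did not for ENSMUST00000197443.

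Anks1b (chr10:89873509-90973300, plus strand) encodes AIDA-1, a PSD-95 binding protein that can move from the synapse to the nucleus. Its gene total was 68.7, 61.2 and 51.0 FPKM in Ctrl and 58.7, 46.4 and 53.5 FPKM in Gsk3sKO, with overlap (log2 fold change -0.18 ± 0.16, 95% interval -0.55 to 0.18, limma adjusted p = 0.866). It had the most transcripts of the 9 genes, 33, of which 13 had a mean of at least 1 FPKM and were tested. Of these, 5 were called, where 5.56% of all transcripts tested and 7.18% of those in genes with at least 5 tested transcripts were called. In Gsk3sKO, 3 of the 5 were higher and 2 lower. The transcripts ENSMUST00000182356 (404 residues), the most abundant by the mean, and ENSMUST00000099364 (460 residues) overlapped between groups.

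Among the lower transcripts, ENSMUST00000182966 (291 residues) had 24.1, 11.4 and 2.38 FPKM in Ctrl and 0.334, 0.329 and 1.33 FPKM in Gsk3sKO (log2 fold change -2.66 ± 0.76, limma adjusted p = 0.772). Every Ctrl library was above every Gsk3sKO library, with a gap of about 1 FPKM between the nearest pair. Without Ctrl replicate 1, the highest library, the log2 fold change was -2.01. ENSMUST00000182113 (510 residues) had 5.38, 2.07 and 3.89 FPKM in Ctrl and 0.723, 0.848 and 2.15 FPKM in Gsk3sKO. Its groups overlapped, and its call (log2 fold change -1.09, limma adjusted p = 0.842) was lost without Ctrl replicate 1 or 3 or Gsk3sKO replicate 1 or 2.

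Among the higher transcripts, ENSMUST00000099366 (266 residues) was at 0, 0 and 0.312 FPKM in Ctrl and 4.23, 4.08 and 5.54 FPKM in Gsk3sKO, where about 445, 300 and 425 reads lay behind it. It had the smallest unadjusted p of the 58 scaffold transcripts tested (log2 fold change 2.35 ± 0.37, limma adjusted p = 0.212), and its log2 fold change stayed between 2.24 and 2.48 when any 1 library was left out. ENSMUST00000179694 (266 residues) had 0, 0.355 and 0.454 FPKM in Ctrl and 2.81, 2.61 and 1.13 FPKM in Gsk3sKO (log2 fold change 1.3, limma adjusted p = 0.842). ENSMUST00000182284 (451 residues) had 0.169, 0.511 and 0.165 FPKM in Ctrl and 2.22, 1.48 and 1.47 FPKM in Gsk3sKO (log2 fold change 1.09, limma adjusted p = 0.842). In all 3 the groups did not overlap, at levels of a few FPKM. Their Ctrl means were 0.104, 0.270 and 0.282 FPKM, so each reached a mean of 1 FPKM only through Gsk3sKO. The call of ENSMUST00000179694 was lost without Ctrl replicate 1 or Gsk3sKO replicate 1 or 2, and that of ENSMUST00000182284 without Ctrl replicate 3 or Gsk3sKO replicate 1.

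ENSMUST00000099366, ENSMUST00000179694 and a further transcript, ENSMUST00000179337, share 1 coding sequence of 266 residues and differ in their starts. Summed, they had 0.263, 4.0 and 2.98 FPKM in Ctrl and 7.94, 7.22 and 15.5 FPKM in Gsk3sKO. The groups of the sum did not overlap (exact permutation p = 0.1, the smallest possible). ENSMUST00000099366 and ENSMUST00000179694 had already been called, so the sum is no separate support. ENSMUST00000179337 alone overlapped, at 0.263, 3.65 and 2.21 FPKM in Ctrl and 0.904, 0.529 and 8.86 FPKM in Gsk3sKO. The 291-residue coding sequence of ENSMUST00000182966 differs from the 266-residue one by a single small exon, and was lower in Gsk3sKO. Both sit near the 3′ end of the gene, where short and long Anks1b transcripts overlap and reads are divided between them by estimate. The start at 90895098 and 80 bases after it, used by 2 transcripts, gave 0, 0 and 0.701 FPKM in Ctrl and 4.49, 4.08 and 5.54 FPKM in Gsk3sKO, without overlap. The start near 90829111, with 8 transcripts, holds both ENSMUST00000182966 and ENSMUST00000179694. It gave 30.0, 16.7 and 5.80 FPKM in Ctrl and 4.57, 4.58 and 12.7 FPKM in Gsk3sKO, with overlap (exact permutation p = 0.2). The start near 90575727, with 16 transcripts, gave 21.7 to 31.3 FPKM in Ctrl and 19.9 to 33.1 FPKM in Gsk3sKO, with overlap.

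**Figure D2:**
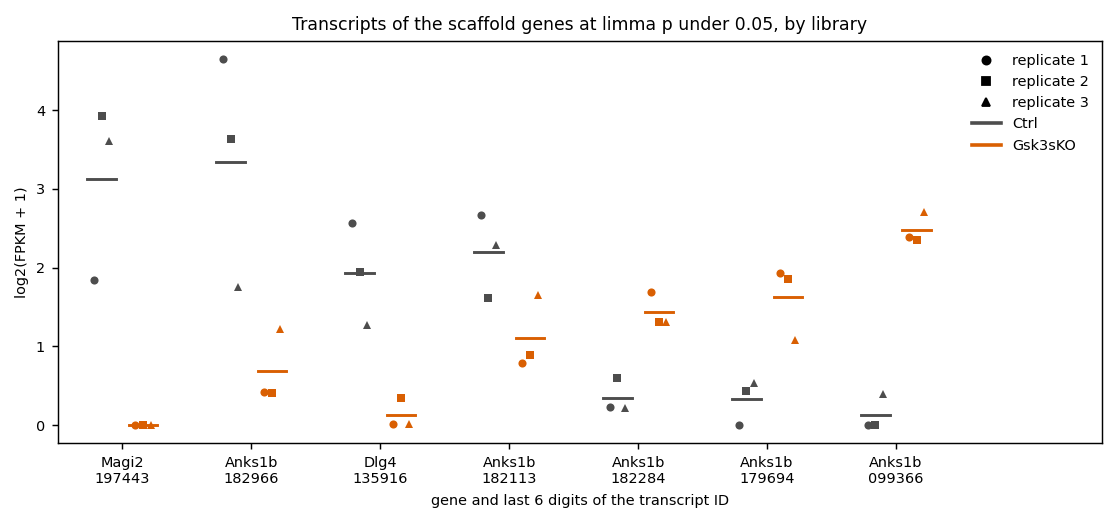
Level, as log2(FPKM + 1), of the 7 scaffold transcripts with an unadjusted limma p under 0.05, in each library, with symbols for the replicates and a bar at the group mean. The 4 on the left were lower and the 3 on the right higher in Gsk3sKO, and only the second lower Anks1b transcript overlaps between groups.

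Over all 9 genes, 116 of the 119 transcripts were above 0 in some library and 58 had a mean of at least 1 FPKM. Of these 58, 7 were called (12.1%, in 3 genes), against 5.56% of all 21584 transcripts tested. By direction, 3 were higher and 4 lower, where 1.81% of all transcripts were called higher and 3.75% lower, and 10 of the 58 did not overlap between groups, where 11.2% of all transcripts did not. Without Anks1b, 2 of 45 scaffold transcripts were called (4.44%). Magi2 ENSMUST00000197443 and Anks1b ENSMUST00000182966, both among the 7, had been picked out in earlier work on these libraries. The members too were chosen with earlier results known. Of the 7, all but Anks1b ENSMUST00000182113 had a mean under 1 FPKM in 1 of the groups. Those transcripts were tested only because of the group where they were high. For these reasons the 12.1% is no independent support. No scaffold transcript passed an adjusted p of 0.05 in limma (lowest adjusted p 0.212). The median log2 fold change of the 58 was -0.02, against -0.06 over all transcripts. None of the 9 most abundant transcripts, 1 per gene, was called, and their share of the gene total overlapped between groups in 9 of 9 genes. How often such shares overlap over all genes was not counted. A further 9 transcripts had a log2 fold change above 1 in size and were not called.

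**Figure D3:**
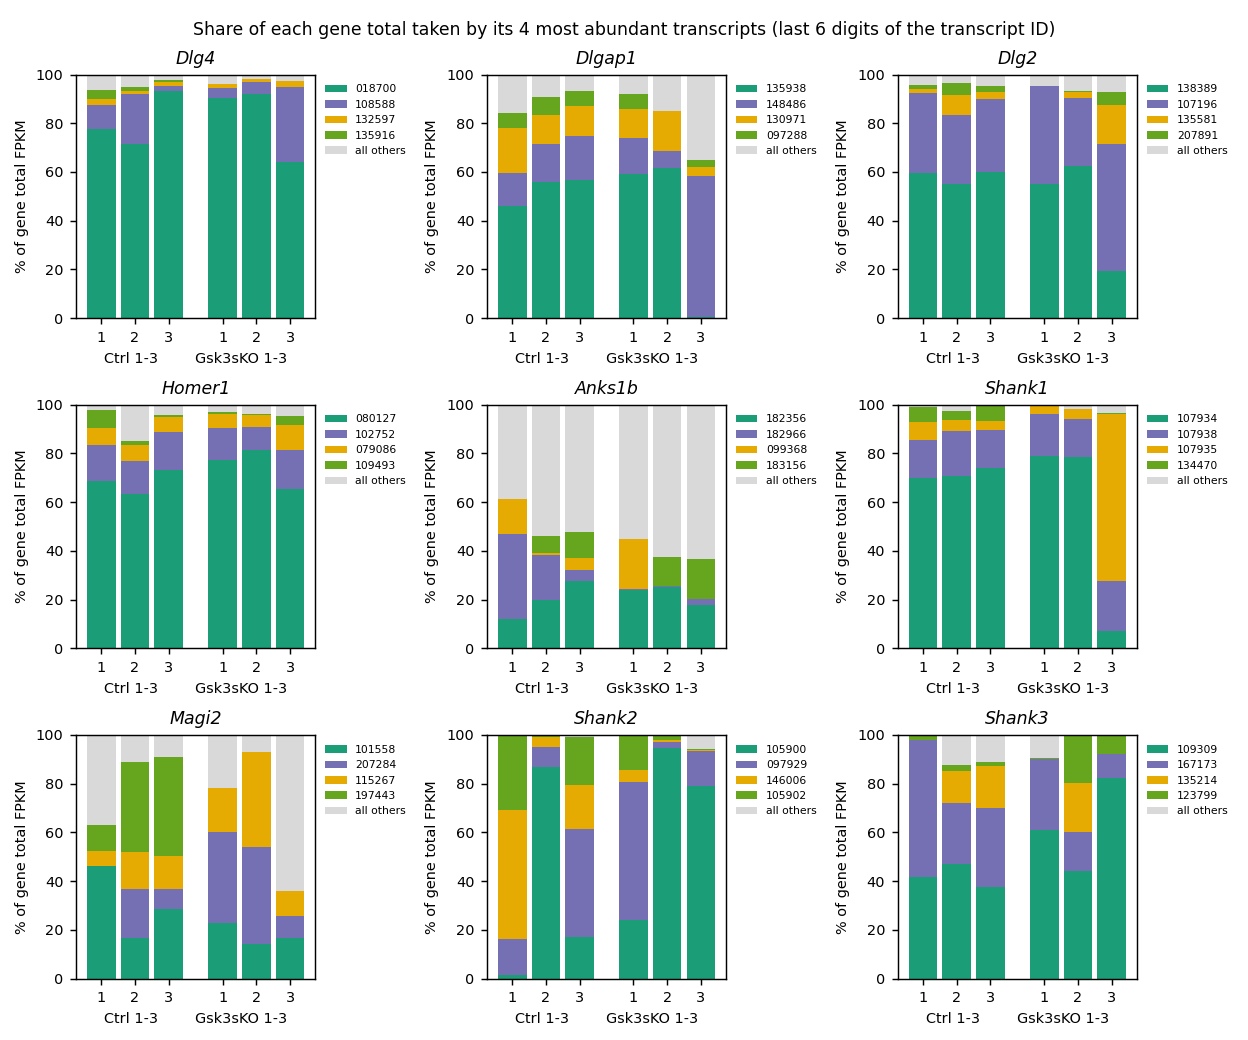
Share of each gene total, in percent of FPKM, held by the 4 most abundant transcripts of each gene and by all others, in each of the 6 libraries. Homer1 and Dlg4 kept the same leading transcript in 6 of 6 libraries, Shank2 and Magi2 changed within both groups, and Dlgap1, Dlg2 and Shank1 changed in Gsk3sKO replicate 3.

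Small exons were compared by adding up the transcripts that share them. A short coding cassette exon is taken here as an inner coding exon of at most 100 bases that some annotated transcripts include and that lies inside an intron of others, with a mean of at least 1 FPKM on each side. Its inclusion was estimated as the FPKM of the transcripts with it, in percent of the FPKM of both kinds together. The 9 genes held 16 such exons in 8 genes, and the groups did not overlap in 4 of the 16 (7 without Ctrl replicate 1, where fewer libraries make separation easier). Over all genes, 10.1% of 1618 such exons did not overlap. Exons of the same gene share transcripts with each other and with the called transcripts above, and the percentages come from estimated FPKM, not from reads across junctions.

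Exons whose groups did not overlap are printed with their place in GRCm38, all on the plus strand. The Shank1 and Shank2 exons, whose groups overlapped, are printed for their likeness to that of Shank3. In the 3 Shank exons the capitals mark AGAAGAA, the longest stretch that all 3 share. In the Anks1b exon the capitals mark 3 bases that a version starting 3 bases later leaves out.
Magi2, 42 bases, chr5:20543585-20543626: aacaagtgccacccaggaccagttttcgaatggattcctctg
Shank3, 24 bases, chr15:89538015-89538038: cttccattcggAGAAGAAaagggg
Shank1, 24 bases, chr7:44344298-44344321: tctccccctggaAGAAGAAaattg
Shank2, 21 bases, chr7:144398241-144398261: cctcagtccggaAGAAGAAgg
Anks1b, 75 bases, chr10:90914693-90914767: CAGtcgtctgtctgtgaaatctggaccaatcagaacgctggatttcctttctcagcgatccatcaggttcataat

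The 42-base exon of Magi2 was included at 33.5%, 40.4% and 26.2% in Ctrl and 73.6%, 84.4% and 82.2% in Gsk3sKO. Every Gsk3sKO library was above every Ctrl library, by 46.7 percentage points between the means (exact permutation p = 0.1, the smallest possible). ENSMUST00000197443 is among the transcripts that skip it, together with ENSMUST00000101558. A fragment of 714 bases, ENSMUST00000207284, includes it, and FPKM divides by length, so a fragment weighs heavily. With complete protein-coding transcripts alone the inclusion was 33.5%, 23.7% and 18.9% in Ctrl and 53.4%, 72.6% and 80.2% in Gsk3sKO, again without overlap.

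The 24-base exon of Shank3 was included at 42.4%, 57.8% and 46.4% in Ctrl and 68.8%, 73.5% and 88.9% in Gsk3sKO. The groups did not overlap (28.2 percentage points between the means, exact permutation p = 0.1). The skipping side consists of ENSMUST00000167173, an incomplete fragment of 719 bases, and a processed transcript, while the including side is led by the full-length ENSMUST00000109309. The fragment rested on about 276, 90 and 108 reads in Ctrl and 137, 64 and 12 in Gsk3sKO. ENSMUST00000109309 rested on about 980 to 2911 reads per library. The highest value, 88.9%, came from Gsk3sKO replicate 3, where the Shank3 gene total was only 5.38 FPKM. No complete protein-coding Shank3 transcript skips it, so the value could not be had from complete transcripts alone.

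The Anks1b exon of 75 bases was included at 49.8%, 27.8% and 8.85% in Ctrl and 8.62%, 6.24% and 7.31% in Gsk3sKO. The Ctrl libraries spread widely, and Ctrl replicate 3 was just above the highest Gsk3sKO library. The version of 72 bases was included at 22.9%, 15.8% and 14.3% in Ctrl and 9.59%, 6.92% and 7.65% in Gsk3sKO. Neither version overlapped between groups (exact permutation p = 0.1 each), and both are counted against the same skipping transcripts. The difference of the means for the 75-base version was -21.4 percentage points, and -11.0 without Ctrl replicate 1. Its transcripts did not all move together, since ENSMUST00000182284, which was higher in Gsk3sKO, includes it.

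The other small exons overlapped between groups. The 24-base exon of Shank1 was included at 91.0%, 94.7% and 95.7% in Ctrl and 96.4%, 95.4% and 28.6% in Gsk3sKO. A further Shank1 exon of 27 bases was included at 24.8%, 24.2% and 20.5% in Ctrl and 20.6%, 20.1% and 92.7% in Gsk3sKO. Both Shank1 exons and a 30-base exon of Dlgap1, at 72.5% to 84.0% in 5 libraries and 21.3% in Gsk3sKO replicate 3, were set apart by this library alone. The 36-base exon that separates the 366-residue from the 354-residue Homer1 was included at 77.6% to 89.9% in Ctrl and 81.4% to 93.5% in Gsk3sKO. The 21-base exon of Shank2 ranged from 35.3% to 91.0% in Ctrl and from 29.5% to 95.4% in Gsk3sKO. Dlg2 carries a mutually exclusive pair of 100 and 46 bases, of which the shorter was included at 97.9% to 99.5% in the 6 libraries.

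The microexons of the 3 Shank genes resemble each other in length and letters. Shank1 and Shank2 share a stretch of 10 bases, Shank1 and Shank3 one of 9, and Shank1 and Shank3, equal in length, have the same base at 11 of 24 positions. The motif AGAAGAA, chosen after these sequences were seen, was in 2.84% of all 1618 short coding cassette exons in the sense direction and in 3.65% on either strand. Of 71 exons of 21 to 24 bases, 3 held it, which are the 3 Shank exons. A shared stretch is a description of the letters and not a binding site.

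**Figure D4:**
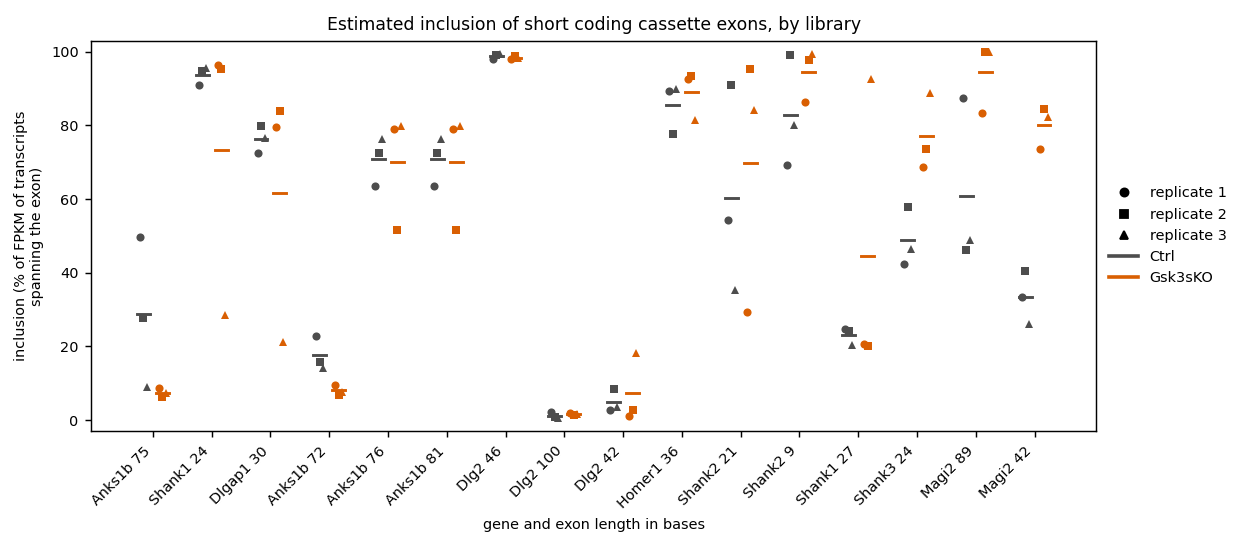
Estimated inclusion of the 16 short coding cassette exons, in percent of the FPKM of transcripts spanning the exon, in each library, ordered by the difference between group means, with symbols for the replicates and a bar at the group mean. Shank3 24 and Magi2 42 were higher and Anks1b 75 and 72 lower in Gsk3sKO without overlap, and the outlying triangles of Shank1 and Dlgap1 are Gsk3sKO replicate 3.

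Transcripts with exactly the same coding sequence were also summed, which removes differences in untranslated ends. The 9 genes had 36 such sums with a mean of at least 1 FPKM, and 5 of the 36 did not overlap between groups, against 11% of 14039 over all genes. They were the 266-, 291- and 451-residue forms of Anks1b, the 1400-residue form of Magi2 and the 354-residue form of Homer1. All but the Homer1 form consist of or contain transcripts already called above, so they are no separate support. The Homer1 form was at 0.393, 5.69 and 0.397 FPKM in Ctrl and 0.125, 0.345 and 0.380 FPKM in Gsk3sKO. Its groups were separated by less than 0.02 FPKM, and only Ctrl replicate 2 was high.

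Among the other genes of the postsynaptic density, 47 of a list of 48 were found in the table and 46 were tested as gene totals. None was called higher and 2 were called lower, with a median log2 fold change of 0.00 against -0.06 over all gene totals, of which 5.2% were called lower. Dynll1, a dynein light chain that binds GKAP and other scaffolds, had 85.3, 116 and 71.0 FPKM in Ctrl and 63.3, 49.4 and 48.0 FPKM in Gsk3sKO. The groups did not overlap (log2 fold change -0.73 ± 0.20, limma adjusted p = 0.607). Lin7b, a PDZ adaptor of the Cask complex, had 36.7, 30.0 and 39.1 FPKM in Ctrl and 30.1, 27.3 and 21.9 FPKM in Gsk3sKO. Its groups overlapped narrowly (log2 fold change -0.41, limma adjusted p = 0.752), and its call was lost without Ctrl replicate 1 or 3 or Gsk3sKO replicate 2 or 3.

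Of 10 receptors and adhesion proteins that these scaffolds hold, 1 was called higher and 0 lower. Over all gene totals 6.56% were called, 1.36% higher and 5.2% lower. The median log2 fold change of the 10 was 0.05. Cacng2, which encodes stargazin and ties AMPA receptors to PSD-95, had 13, 12.1 and 12.3 FPKM in Ctrl and 15, 17.8 and 19.9 FPKM in Gsk3sKO. Every Gsk3sKO library was above every Ctrl library (log2 fold change 0.45 ± 0.17, limma adjusted p = 0.708). The call was lost without Ctrl replicate 2 or 3 or Gsk3sKO replicate 2 or 3.

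The genes whose level over the 6 libraries was most like the mean log2 level of the 9 scaffold genes, out of 8459 compared, were Mettl9, Iqsec2 and Rfx7, each with a Pearson correlation of 0.99. All 6 points share their library with the scaffold mean, and all 3 genes were lowest in Gsk3sKO replicate 3. Iqsec2, itself a protein of the postsynaptic density, was at 30.3, 38.2 and 40.1 FPKM in Ctrl and 38.4, 38.0 and 21.6 FPKM in Gsk3sKO.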

How the data were processed

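Ribosome-associated RNA was sequenced in 3 Ctrl and 3 Gsk3sKO libraries of mPFC D2 neurons with a stranded total RNA kit. Groups and replicate numbers came from the submitters' labels. The authors deposited FPKM per transcript and library. The submitters' processing notes name HISAT2 2.1.0, SAMtools 1.9, StringTie 1.3.4d and GRCm38. The sources used here give no settings for them. StringTie divides reads between overlapping transcripts by estimate, so a lower value of 1 transcript can come with a higher value of another. The authors deposited a fold (linear ratio), a p-value and a q-value per transcript from their own comparison, which were not used. The number of columns of values per library left out was 0.

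Of the 115220 transcripts, 114237 were found in GENCODE M21, including 119 of 119 scaffold transcripts. Exons, coding sequences, biotypes and printed sequences came from that annotation and its transcripts (GRCm38). Start groups joined annotated starts within 5 kb of each other. Transcripts and gene totals with a mean of at least 1 FPKM went into limma 3.58.1 under R 4.3.3, with lmFit and a trended eBayes, on log2(FPKM + 1), without covariates, 2-sided, with Benjamini-Hochberg adjustment over all features tested. Fold changes on this scale understate the change of low transcripts. Shares and sums were compared with 2-sided exact permutation tests, which for 3 against 3 libraries cannot give less than 0.1. The fit was tested on simulated data. The spacing of low values gave the depth, in transcripts over 800 bases, of which 12.1% to 23.9% per library came out as whole reads within 0.01, and read numbers are approximate. Tables used pandas 2.3.3, scipy 1.17.1 and numpy 2.4.6 under Python 3.11.15, and plots matplotlib 3.10.9.

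The members and lists were chosen with earlier results of these data known. The text names all 9 genes, the most abundant transcript of each, every transcript with an unadjusted p under 0.05, the Homer1 classes, Magi2 ENSMUST00000197443 and Anks1b ENSMUST00000182966, and genes of the other lists with an unadjusted p under 0.05. The small exons, the sums by coding sequence, the start groups, the shared motif and other transcripts named were chosen after values were seen.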

Additional observations from a re-analysis of the deposited data

How the results depend on the processing

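Of the 58 scaffold transcripts tested, 7 were called, and the count was 11 of 116 without a filter on low values, 1 of 21 with a mean of at least 5 FPKM, and 5 to 9 with 1 library left out. With the replicate block it was 6, of which 4 were shared. The calls of Anks1b ENSMUST00000182113, ENSMUST00000179694 and ENSMUST00000182284 were lost and those of Shank2 ENSMUST00000105900 and ENSMUST00000146006 gained (limma adjusted p = 0.899 each), Cacng2 and Lin7b were not called, and 0 of 9 gene totals were called. Libraries of the same replicate number did not deviate together (correlations of -0.03, -0.01 and -0.08 over gene totals). With so few libraries, these correlations cannot decide whether the replicate numbers pair the samples. Gene totals called were 0 of 9, and 0 to 1 with 1 library left out. Among the other postsynaptic density genes 2 were called, 1 with median ratio scaling, with an ordinary linear model or with the replicate block, and 1 to 3 with 1 library left out. The Gsk3b gene total ranged from -0.61 to -0.28 with 1 library left out. The share of the leading transcript did not overlap in 0 of 9 genes, and in 0 to 3 with 1 library left out. Fewer libraries make separation easier, and the number over all genes was not counted. Exons without overlap were 4 of 16, and 4 to 7 with 1 library left out (7 without Ctrl replicate 1), where fewer libraries make separation easier.

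The following differences changed sign. The Dlg2 gene total was 0.0126 on the log2 scale with median ratio scaling. With protein-coding transcripts alone, the difference in leading share was 0.25 percentage points for Dlg2 and -0.508 for Dlg4. With complete protein-coding transcripts alone, chosen after seeing the data, the inclusion of the Dlg2 exons of 100, 46 and 42 bases differed by -0.293, 0.293 and -0.782 percentage points. The cause was not tested.

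With 1 library left out, gene totals ranged on the log2 scale from -0.14 to 0.0205 for Dlg2, -0.23 to 0.0858 for Dlgap1 and -0.78 to 0.0578 for Shank3. Transcripts ranged from -2.61 to 0.28 for Dlgap1 ENSMUST00000135938, -1.53 to 0.0889 for Shank1 ENSMUST00000107934, -0.15 to 0.33 for Shank3 ENSMUST00000109309, -0.16 to 0.20 for Anks1b ENSMUST00000182356 and -0.52 to 0.92 for Gsk3b ENSMUST00000114750. Leading shares ranged in percentage points from -20.9 to 0.457 for Dlg2, -3.59 to 10.4 for Dlg4, -23.1 to 7.48 for Dlgap1, -29.0 to 7.06 for Shank1 and -1.49 to 6.37 for Anks1b. Exon inclusion ranged from -5.52 to 8.71 for the Anks1b exon of 81 bases, -5.54 to 8.69 for that of 76 bases, -0.365 to 7.48 for Homer1, -25.9 to 5.47 for Dlgap1, -2.83 to 33.5 for the Shank1 exon of 27 bases, -31.8 to 2.08 for that of 24 bases, -3.0 to 5.48 for the Dlg2 exon of 42 bases and -3.31 to 29.6 for the Shank2 exon of 21 bases.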

Other observations

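Noncoding transcripts made up a sizeable share of Dlgap1 and Shank3 in some libraries. Transcripts with a retained intron held 18.3% of the Dlgap1 FPKM, and protein-coding ones held 73.5%, 82.4% and 84.7% in Ctrl and 82.8%, 80.9% and 84.5% in Gsk3sKO. The groups overlapped, with Ctrl replicate 1 the lowest. In Shank3, processed transcripts held 10.7% and transcripts with a retained intron 10.4% of the FPKM, and the protein-coding share was 97.8%, 71.9% and 69.8% in Ctrl and 97.3%, 60.1% and 92.4% in Gsk3sKO. High and low libraries occurred in both groups. Homer1 was listed with coding transcripts only.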
